A study of Mus musculus with 16 samples.

Results

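The epithelial gene set held 10 of the 22298 genes counted in each tumor, listed by name as markers of epithelium with no threshold on their values: the adhesion genes Cdh1 and Epcam, the keratins Krt7, Krt8, Krt18 and Krt19, the claudins Cldn3, Cldn4 and Cldn7, and the splicing regulator Esrp1. Their levels were compared between the vehicle group and the IL-33 treatment group of abdominal tumors, and between 1 IL-33 tumor, replicate 7, and the other 15. Wild-type 615-line mice, 6 weeks old at inoculation and of either sex, carried peritoneal tumors of MFC cells, a mouse forestomach carcinoma line, and every other day received intraperitoneal IL-33 (20 μg/kg) or, as the vehicle, PBS. Each group had 8 tumors, and all 16 came from the same cell line in hosts that kept their own immune and stromal cells. The sex of the mice behind the tumors was not given in the sources used here, nor whether each tumor came from a different mouse. Levels are given as CPM, the count of a gene scaled to the total count of its tumor, and genes are compared with each other only as TPM, which also divides by exon length. In bulk RNA, fewer cells that express a gene and less of its RNA per cell cannot be told apart. Where p-values are given they measure the spread between these tumors, taken as independent. If some tumors shared a mouse, they do not measure the spread between mice.

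Epithelial cells are held together by E-cadherin (Cdh1), the calcium-dependent adhesion molecule of adherens junctions, and by Epcam, a membrane glycoprotein of simple epithelia. Keratin filaments form from pairs of a type I and a type II chain, and simple epithelia of gut, gland and duct use Krt8 or Krt7 (type II) with Krt18 or Krt19 (type I). Claudins seal the tight junction, and Esrp1 directs the splicing of epithelial transcript forms. Carcinoma cells that take on mesenchymal features often lose Cdh1 under repressors of the Snail, Zeb and Twist families, while vimentin (Vim) rises.

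Vehicle tumors had total counts from 14139268 to 24290794 and IL-33 tumors from 16569613 to 24288893, so 3 counts stood for at most 0.212 CPM. A pair of libraries stood apart. IL-33 replicate 7 carried RNA of other organs: a list of 12 uterus and oviduct genes summed to 1850.3 CPM there and to at most 27.7 CPM in the other 15 tumors, and 10 ovary genes summed to 1720.0 CPM there and to at most 8.22 CPM elsewhere. In vehicle replicate 4, long genes were low. The median log2 ratio to the other vehicle tumors was −1.38 in the third of genes with the longest exons and −0.08 in the third with the shortest. A smaller trend was seen in IL-33 replicate 3, with −0.45 and 0.26 against the other IL-33 tumors. Results are therefore also given with IL-33 replicate 7 left out, and with vehicle replicate 4 left out where that moved them.

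Most of the set was close to absent from 15 of the 16 tumors, while Krt8 and Krt19 were abundant in every one. IL-33 replicate 7 held the highest level of 8 of the 10 genes, all but Krt8 and Krt19, and for each of the 8 its level was more than 10-fold that of the next tumor. For comparison, 43% of the 16817 genes with at least 10 counts were highest in that tumor, and 9.88% lay more than 10-fold above the next. The summed level of the 8 genes was 570.9 CPM in IL-33 replicate 7 and between 1.57 and 8.05 CPM in the other tumors. Of all counts of Krt18 in the series, 96.3% were in that 1 library, as were 97.1% of those of Cldn3 and 77.6% of those of Cdh1.

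**Figure D1:**
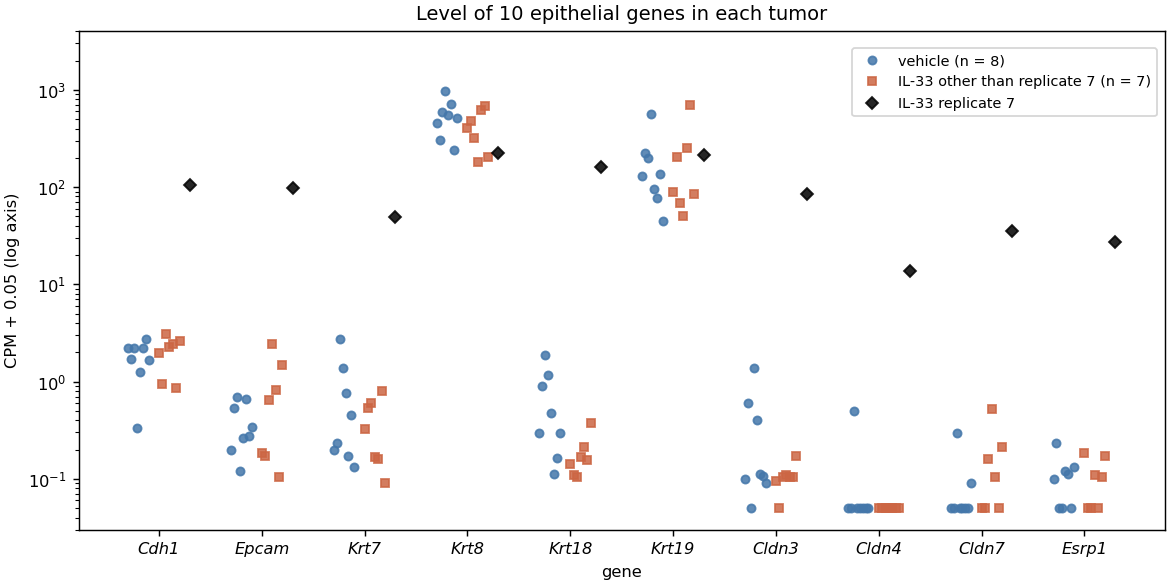
Level of each of the 10 genes in every tumor, as CPM plus 0.05 on a log axis, with circles for the 8 vehicle tumors, squares for 7 IL-33 tumors and a diamond for IL-33 replicate 7. Krt8 and Krt19 lie above 44 CPM in all 16 tumors, and the other 8 genes lie at 3.01 CPM or less outside IL-33 replicate 7.

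The adhesion gene Cdh1 (ENSMUSG00000000303) lies at chr8:106603351-106670246 on the plus strand of GRCm38. In the vehicle group its lowest, median and highest levels were 0.283, 1.91 and 2.69 CPM, and in the IL-33 treatment group 0.811, 2.29 and 104 CPM. The groups overlapped, and the 104 CPM was IL-33 replicate 7, 34.6-fold above the next tumor, IL-33 replicate 3 with 3.01 CPM. The lowest value, 0.283 CPM, was that of vehicle replicate 4, the library in which long genes were low. Epcam (ENSMUSG00000045394, chr17:87635979-87651129, plus strand) had a lowest, median and highest level of 0.0707, 0.258 and 0.642 CPM in the vehicle group and 0.0541, 0.685 and 98.8 CPM in the IL-33 treatment group. Outside IL-33 replicate 7 its highest levels were 2.40 CPM in IL-33 replicate 4, from 41 counts, and 1.44 CPM in replicate 8. Epcam was above every vehicle tumor in 4 of the 8 IL-33 tumors.

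Both genes had at least 1 count in every tumor. Epcam is shown here with the bases before its start, from the RefSeq promoter table (GRCm38.p6), since it was one of the genes that stood together in IL-33 replicate 7. A few short motifs were searched on both strands, so also as their reverse complements, and each match is in capitals. They were the E-box hexamer CAGGTG, which Snail and Zeb repressors are known to bind, the GC box, spelled GGGCGG, and the TATA box, spelled TATAAA. No matches overlapped.
Epcam upstream, chr17:87635729-87635978, plus strand: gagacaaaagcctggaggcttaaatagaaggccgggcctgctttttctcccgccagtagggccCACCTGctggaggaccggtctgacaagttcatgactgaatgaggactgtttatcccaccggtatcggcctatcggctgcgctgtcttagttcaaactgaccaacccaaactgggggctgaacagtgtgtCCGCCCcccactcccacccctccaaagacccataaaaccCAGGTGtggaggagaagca
The window held 2 E-box hexamers and 1 GC box. Of all 32851 windows of 250 bases in the table, 17.2% held the E-box hexamer, 32.7% the GC box and 12.4% the TATA box. The table had an entry for 7 of the 10 genes, all but Cdh1, Krt19 and Esrp1, and of these 7 the E-box hexamer was found for 6, the GC box for 5 and the TATA box for 0. A match describes the letters only.

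The keratins divided sharply. Krt8 (ENSMUSG00000049382, chr15:101996698-102004482, minus strand), the type II chain of simple epithelia, had a lowest, median and highest level of 241, 534 and 975 CPM in the vehicle group and 181, 360.0 and 674 CPM in the IL-33 treatment group. Krt19 (ENSMUSG00000020911, chr11:100140810-100148665, minus strand), the smallest type I keratin, had 44.5, 133 and 569 CPM in the vehicle group and 50.4, 148 and 690.2 CPM in the IL-33 treatment group. Both were present in every tumor with groups that overlapped, and IL-33 replicate 7, with 224 CPM of Krt8 and 211 CPM of Krt19, lay inside the range of the others. The highest vehicle value of both was that of vehicle replicate 4.

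Krt18 is the usual type I partner of Krt8. Krt18 (ENSMUSG00000023043, chr15:102028180-102032027, plus strand) had 0.0617, 0.335 and 1.83 CPM as its lowest, median and highest level in the vehicle group, and 0.0546, 0.113 and 159 CPM in the IL-33 treatment group. Outside IL-33 replicate 7 that was between 1 and 37 counts a tumor, with 3 or fewer in 8 of the 15. Krt7 (ENSMUSG00000023039, chr15:101411043-101430313, plus strand), a type II keratin of ducts, the urinary and genital tract and mesothelium, had 0.0823, 0.292 and 2.72 CPM in the vehicle group and 0.0412, 0.378 and 48.8 CPM in the IL-33 treatment group. For both genes the highest tumor was IL-33 replicate 7 and the next was vehicle replicate 3, and the groups overlapped.

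Per exon length, the abundant type I chain beside Krt8 in the 15 tumors was Krt19 and not Krt18. The median level over the 15 tumors was 739.7 TPM for Krt8 (range 291 to 1124), 208 TPM for Krt19 (range 70.0 to 1089) and 0.342 TPM for Krt18 (range 0.105 to 4.01). Krt18 stood at a median of 0.0653% of the Krt8 level and at most at 0.422%, while in IL-33 replicate 7 the levels of Krt8, Krt18 and Krt19 were 352, 341 and 350.4 TPM, and Krt18 was 96.7% of Krt8. Krt19 was 35.8% of Krt8 at the median, between 9.13% and 108%. It was above Krt8 in 1 of the 15 tumors, IL-33 replicate 6.

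Krt20, a type I keratin of gut and urothelial epithelium that is not of the set, was the next type I chain by its median level among the keratins listed. It had a median of 30.3 TPM over the 15 tumors and ranged from 0.332 to 128 TPM, against 1.82 TPM in IL-33 replicate 7. Keratin sums here cover only the set and the list of other keratins, not every keratin gene. The share of Krt20 in the type I sum was 7.71% at the median and 46.7% at most, where Krt19 made up a median of 89.0%. The type I sum was 46.4% of the type II sum at the median, and Krt8 made up at least 97.0% of the type II sum in the 15 tumors. Keratin 8 and 18 have processed pseudogenes, and how reads shared with such copies were counted is not given in the sources used here.

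**Figure D2:**
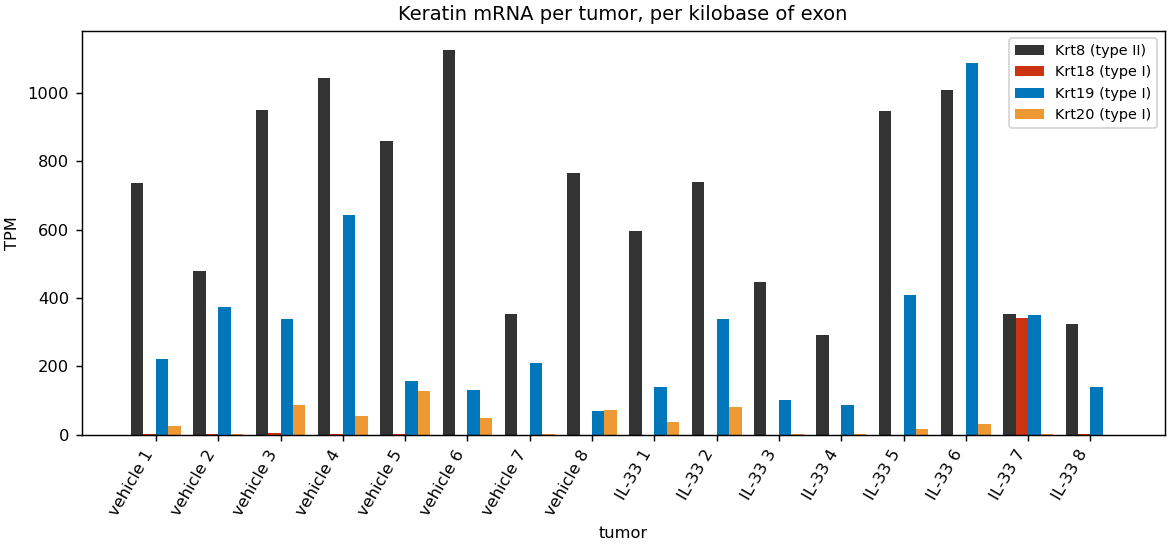
TPM of Krt8, Krt18, Krt19 and Krt20 as bars for each of the 16 tumors. Krt18 bars are at 4.01 TPM or less, too low to see, in every tumor but IL-33 replicate 7, where Krt8, Krt18 and Krt19 reach 352, 341 and 350.4 TPM.

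Krt8 and Krt18 are neighbours in the genome, on opposite strands with 23697 bases and none of the counted genes between them, so the gap between their levels is one between adjacent genes. The bases upstream of both are given as far as the start of the first exon in GENCODE M21.
Krt8 upstream, chr15:102004483-102004592, minus strand: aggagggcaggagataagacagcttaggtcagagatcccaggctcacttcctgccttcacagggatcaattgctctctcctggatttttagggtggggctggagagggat
Krt18 upstream, chr15:102027966-102028179, plus strand: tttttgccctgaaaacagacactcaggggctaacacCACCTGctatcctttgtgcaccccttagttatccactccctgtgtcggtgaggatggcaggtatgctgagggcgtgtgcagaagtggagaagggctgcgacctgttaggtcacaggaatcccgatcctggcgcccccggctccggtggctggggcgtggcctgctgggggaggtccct
The capitals in the Krt18 sequence mark an E-box hexamer. The RefSeq start of Krt8 lies further into the gene, and its full window also held 1 E-box hexamer, inside the first exon of GENCODE. Over the full windows, GC content was 58.0% for Krt8 and 60.4% for Krt18, with 3 and 12 CpG, against medians of 52.4% and 6 CpG over all windows. Neither held a GC box or a TATA box in these letters.

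The claudins were near 0 in most tumors. Cldn3 (ENSMUSG00000070473, chr5:134986214-134987472, plus strand) had a lowest, median and highest level of 0, 0.0594 and 1.34 CPM in the vehicle group and 0, 0.0548 and 84.6 CPM in the IL-33 treatment group. Cldn4 (ENSMUSG00000047501, chr5:134945119-134946934, minus strand) had 0 counts in 14 of the 16 tumors, 9 counts (0.445 CPM) in vehicle replicate 3 and 237 counts (13.5 CPM) in IL-33 replicate 7. Cldn7 (ENSMUSG00000018569, chr11:69964779-69967885, plus strand), a claudin of the lateral membrane, had 0, 0 and 0.247 CPM in the vehicle group and 0, 0.0821 and 34.9 CPM in the IL-33 treatment group. A count of 0 allows up to 3 counts, so levels under 0.212 CPM could not be told from 0 in the shallowest library. In each of the 3 genes IL-33 replicate 7 was highest, by 63.0-fold for Cldn3, 30.4-fold for Cldn4 and 74.7-fold for Cldn7 over the next tumor, and the other tumors of the groups overlapped. Cldn3 and Cldn4, both known receptors of a clostridial toxin, are adjacent on chromosome 5, 39279 bases apart with none of the counted genes between, and were both high in that 1 tumor. Their upstream windows are set out for that reason.
Cldn3 upstream, chr5:134985964-134986213, plus strand: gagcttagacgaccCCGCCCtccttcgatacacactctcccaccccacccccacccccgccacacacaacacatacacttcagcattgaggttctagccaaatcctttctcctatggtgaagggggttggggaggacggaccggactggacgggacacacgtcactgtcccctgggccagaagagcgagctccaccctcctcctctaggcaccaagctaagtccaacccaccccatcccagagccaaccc
Cldn4 upstream, chr5:134946935-134947184, minus strand: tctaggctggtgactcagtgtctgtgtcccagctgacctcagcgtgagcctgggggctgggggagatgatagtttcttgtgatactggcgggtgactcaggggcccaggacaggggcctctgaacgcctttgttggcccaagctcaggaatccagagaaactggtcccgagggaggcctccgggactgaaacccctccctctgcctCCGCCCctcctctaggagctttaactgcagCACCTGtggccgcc
Each window held 1 GC box, and that of Cldn4 also held 1 E-box hexamer.

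Esrp1 (ENSMUSG00000040728, chr4:11331933-11386783, minus strand), the regulator of epithelial splicing, had a lowest, median and highest level of 0, 0.0555 and 0.184 CPM in the vehicle group and 0, 0.0563 and 27.1 CPM in the IL-33 treatment group. It had 475 counts in IL-33 replicate 7 and 3 or fewer in each of the other 15 tumors, 6 of them with 0. Ordered by median TPM over the 15 tumors, the set ran Krt8, Krt19, Cdh1, Epcam, Krt18, Cldn3, Krt7, Esrp1, with Cldn4 and Cldn7 at a median of 0. Krt8 was above Krt19 in 14 of 15 tumors, Krt19 above Cdh1 in 15 and Cdh1 above Epcam in 13. Epcam was above Krt18 in 7 and Cldn3 above Krt7 in 9, so these neighbours did not differ beyond their spread.

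Tests between the groups gave 0 of the 10 genes past an adjusted p of 0.05 in edgeR, against 0% of the 16817 genes tested. At an unadjusted p under 0.05, 7 of the 10 were higher in the IL-33 treatment group, where 9.99% of all genes tested were, and 0 were lower, where 1.17% of all genes were. The 7 were Cdh1, Epcam, Krt18, Cldn3, Cldn4, Cldn7 and Esrp1, with log2 fold changes between 2.81 (SE 0.94, unadjusted p = 0.00815) for Cdh1 and 6.30 (SE 1.85, unadjusted p = 0.00335) for Cldn7. Adjusted p in edgeR was 0.418 for 6 of them and 0.420 for Cldn4. The median log2 fold change over the set was 4.48, and over all genes tested 0.06. All 7 have in common that their level in IL-33 replicate 7 was more than 10-fold that of any other tumor.

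Without IL-33 replicate 7 the direction of these genes was no longer shared. Of the 9 genes still tested, 0 were higher at an unadjusted p under 0.05 (1.83% of the 15803 genes tested) and 2 were lower, Krt18 and Cldn3 (2.29% of all genes), with 0 past an adjusted p (0% of all genes). The log2 fold change of Cdh1 moved from 2.81 to 0.17 (SE 0.34), that of Epcam from 4.94 to 1.14 (SE 0.66) and that of Esrp1 from 5.48 to −0.01 (SE 1.10). That of Krt18 turned from 4.60 (SE 1.69) to −2.27 (SE 0.71, edgeR unadjusted p = 0.00531, adjusted p = 0.964). That of Cldn3 turned from 4.56 to −2.54 (SE 1.00, edgeR unadjusted p = 0.0219, adjusted p = 0.964), and Cldn4 no longer reached 10 counts. The median over the set was −0.02, beside −0.01 over all genes tested.

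Both genes that were lower without that tumor rest on few reads. Krt18 had 14, 37 and 16 counts in vehicle replicates 2, 3 and 4 and at most 8 counts in any other of the 15 tumors. Cldn3 had 9, 19 and 5 counts in vehicle replicates 2, 4 and 5 and at most 3 in the others. An exact permutation test (two-sided, 6435 assignments of tumors, on log2(CPM + 0.5)) gave p = 0.0364 for Krt18 and p = 0.171 for Cldn3, and the groups overlapped for both.

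**Figure D3:**
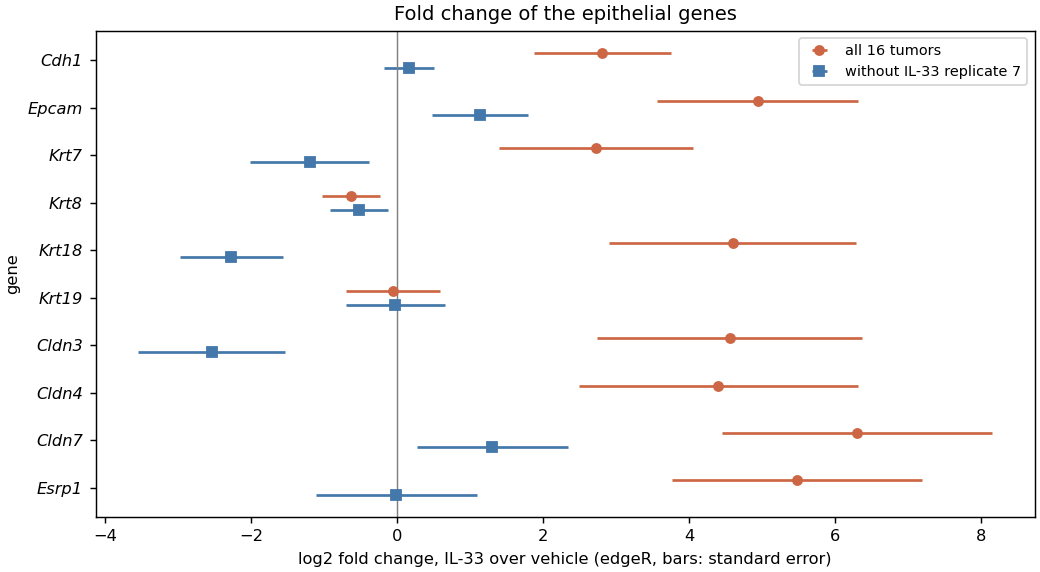
Log2 fold change of each gene, IL-33 over vehicle, from edgeR with its standard error as bars, for all 16 tumors (circles) and without IL-33 replicate 7 (squares, 9 genes since Cldn4 fell under 10 counts). Circles lie at 2.73 or higher for all genes but Krt8 and Krt19, while squares lie between −2.54 and 1.31.

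With all 16 tumors, the exact permutation test gave two-sided p between 0.138 (Epcam) and 1.0 (Cldn4) for the 10 genes, where the smallest p it allows is 0.0002. The groups overlapped for all 10 genes, and 0% of the 16817 genes had groups that did not. DESeq2 gave 0 genes of the set past an adjusted p (0% of all genes), 0 higher at an unadjusted p under 0.05 (2.52% of all genes) and 2 lower (1.59% of all genes), again Krt18 and Cldn3. By default it replaces counts that lie far out in groups of this size, and it replaced the IL-33 replicate 7 count for 8 of the 10 genes, all but Krt8 and Krt19, and for 2614 genes in all.

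For the abundant keratins, the groups did not differ beyond the spread between tumors. Among the vehicle tumors Krt8 averaged 543 CPM ± 231 (SD, n = 8), and its log2 fold change was −0.63 (SE 0.40, edgeR unadjusted p = 0.131, adjusted p = 0.598). With vehicle replicate 4 left out it was −0.28 (edgeR unadjusted p = 0.443), and with IL-33 replicate 7 left out it was −0.53 (SE 0.40). Krt19 averaged 184 CPM ± 167 (SD, n = 8) there, with a log2 fold change of −0.06 (SE 0.64, edgeR unadjusted p = 0.926), which became 0.75 when vehicle replicate 4 was left out and −0.75 when IL-33 replicate 6 was, the tumor with the highest Krt19. Krt7 had a log2 fold change of 2.73 (SE 1.33, edgeR unadjusted p = 0.0562) that was −1.20 (SE 0.81) without IL-33 replicate 7.

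Krt8 was lower in tumors with more leukocyte RNA. The summed level of 9 leukocyte genes, Ptprc (CD45), the lysozyme gene Lyz2, the macrophage gene Adgre1 and 6 others, ran from 131 to 1366 CPM over the 15 tumors. Against it, Krt8 had Pearson's r = −0.742 (permutation p = 0.00123, adjusted 0.00984) and Spearman's rho = −0.682 (permutation p = 0.00609, adjusted 0.0487), on the log2 scale. Without the 2 tumors farthest from the median of the leukocyte sum r was −0.759. It was −0.833 within the 8 vehicle tumors, −0.842 within the 7 IL-33 tumors and −0.774 without vehicle replicate 4. In all, 8 relations were computed, 4 genes against the leukocyte and the fibroblast and endothelial lists, with 100000 permutations each, all after the values had been seen.

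The other genes gave weaker relations. Krt19 had r = −0.605 (permutation p = 0.0173, adjusted 0.0537) and rho = −0.554 (adjusted 0.0714), and r was −0.0244 within the vehicle tumors and −0.932 within the IL-33 tumors. Cdh1 went the other way, with r = 0.601 (permutation p = 0.0201, adjusted 0.0537) and rho = 0.618 (adjusted 0.0621). Its r was 0.442 within the vehicle tumors and 0.825 within the IL-33 tumors. Epcam had r = 0.539 (adjusted 0.0651) and rho = 0.557 (adjusted 0.0714), with r = 0.0780 within the vehicle tumors and 0.733 within the IL-33 tumors. No relation with the fibroblast and endothelial list passed, the nearest being Cdh1 with r = 0.547 (adjusted 0.0651) and rho = 0.375 (adjusted 0.226). Without vehicle replicate 4 that r was 0.424. As a description over the same 15 tumors, Cdh1 and Epcam had r = 0.577 with each other, Krt8 and Krt19 had r = 0.543, and Cdh1 and Krt8 had r = −0.619. Values of a tumor share its library and its depth.

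**Figure D4:**
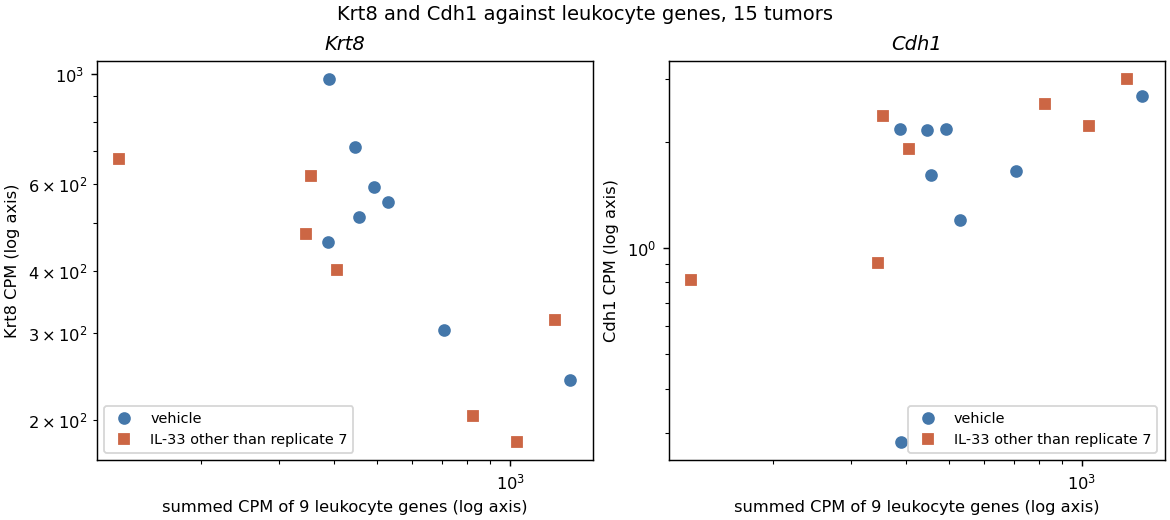
Krt8 (left) and Cdh1 (right) in CPM against the summed CPM of 9 leukocyte genes, all on log axes, for 8 vehicle tumors (circles) and 7 IL-33 tumors (squares). Krt8 falls from left to right (r = −0.742), while Cdh1 is higher towards the right (r = 0.601).

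Other epithelial genes fell likewise into genes that the 15 tumors expressed and genes at a few counts outside IL-33 replicate 7. Of 16 epithelial membrane and hemidesmosome genes, 9 were higher at an unadjusted p under 0.05 in all 16 tumors and 0 lower. Of all genes tested, 9.99% were higher and 1.17% lower. Without IL-33 replicate 7, 0 of 15 tested were higher or lower (1.83% and 2.29% of all genes). The integrin chains of the hemidesmosome were abundant in the other tumors: Itgb4 ranged from 196 to 579 CPM against 77.4 CPM in IL-33 replicate 7, and Itga6 from 7.71 to 377 CPM against 51.4 CPM. The lowest value of both was that of vehicle replicate 4. The serine protease Prss8 and the vesicle GTPase Rab25 were at most at 0.165 and 0.0706 CPM in the 15 tumors and at 26.3 and 13.7 CPM in IL-33 replicate 7.

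Of 11 regulators of epithelial identity, 6 were, like Esrp1, more than 10-fold above the next tumor in IL-33 replicate 7. Grhl1 (4.22 CPM against at most 2.05 CPM) and Trp63 (3.59 CPM against at most 0.840 CPM) were highest there but short of that. Of 11 genes, 3 were higher at an unadjusted p under 0.05 and 0 lower, where 9.99% and 1.17% of all genes tested were. Without IL-33 replicate 7, 0 of 8 tested were either (1.83% and 2.29% of all genes). Elf3 and Ehf, transcription factors of the ETS family, were at most at 0.198 and 0.328 CPM in the 15 tumors and at 52.4 and 47.2 CPM in IL-33 replicate 7. Grhl2, an activator of Cdh1 and claudin genes, was at most at 0.148 CPM against 18.5 CPM, and Esrp2, the close relative of Esrp1, at most at 0.741 CPM against 11.3 CPM. Ovol1 (0.329 to 1.49 CPM) and Ovol2 (0 to 0.0823 CPM), repressors of Zeb1, were at 3.31 and 1.65 CPM in that tumor. Klf5 (22.7 to 71.5 CPM against 22.2 CPM) and Rbm47 (6.93 to 23.5 CPM against 26.6 CPM) were regulators that the 15 tumors did express.

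Of 12 other claudins, 5 were higher at an unadjusted p under 0.05 with all tumors (9.99% of all genes tested) and 0 lower (1.17%). Without IL-33 replicate 7, 1 of 10 tested was lower (2.29% of all genes), Cldn2 (at most 0.247 CPM in the 15 tumors). Cldn12 was present in all tumors, at 36.3 to 133 CPM against 32.8 CPM in IL-33 replicate 7, while Cldn1 (0.247 to 2.49 against 29.7 CPM) and Cldn8 (at most 0.0494 against 8.38 CPM) had the pattern of Cldn3. Cldn5, a claudin of endothelium, was at 2.75 to 26.7 CPM against 77.3 CPM. Of 14 tight junction scaffold and bridging genes 7 were higher and 0 lower, beside the same shares of all genes. Without IL-33 replicate 7, 1 of 13 was higher (1.83% of all genes), Marveld2 (tricellulin). Its log2 fold change was 1.21 (SE 0.35, edgeR unadjusted p = 0.00343, adjusted p = 0.964). The scaffolds Tjp1 (25.0 to 271 CPM) and Pard3 (10.1 to 90.2 CPM) were present throughout, lowest in vehicle replicate 4, and Marveld3 was at most at 0.216 CPM against 7.81 CPM.

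Of 14 adherens junction and desmosome genes, 2 were higher and 0 lower, near the shares of all genes tested (9.99% and 1.17%). Without IL-33 replicate 7, 0 were higher (1.83% of all genes) and 1 lower (2.29%), plakoglobin (Jup, 16.8 to 41.6 CPM). The catenins, which link cadherins to actin, were present in all 15 tumors. There Ctnnb1 ranged from 128 to 548 CPM, Ctnna1 from 214 to 471 CPM and Ctnnd1 from 24.9 to 156 CPM. In IL-33 replicate 7, Ctnnb1 (712 CPM), Ctnnd1 (213 CPM) and Jup (118 CPM) were at their highest, while Ctnna1 (308 CPM) was within the range of the others. Desmoplakin (Dsp), which anchors keratin at the desmosome, was at most at 0.395 CPM against 73.7 CPM, and envoplakin (Evpl) at most at 0.642 CPM against 18.5 CPM. Of 14 other keratins 10 were tested, and 1 was higher, close to the share of all genes, and 0 lower. The 1 was Krt17, with 0.741 CPM in IL-33 replicate 7 and at most 0.109 CPM elsewhere, and it had reached 10 counts only through that tumor. Without that tumor 0 of 8 tested were called either way. The basal keratins of squamous epithelium were near 0, Krt5 at most at 1.33 CPM and Krt14 at most at 1.26 CPM in the 15 tumors, and Krt80 was at 5.23 to 24.6 CPM.

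**Figure D5:**
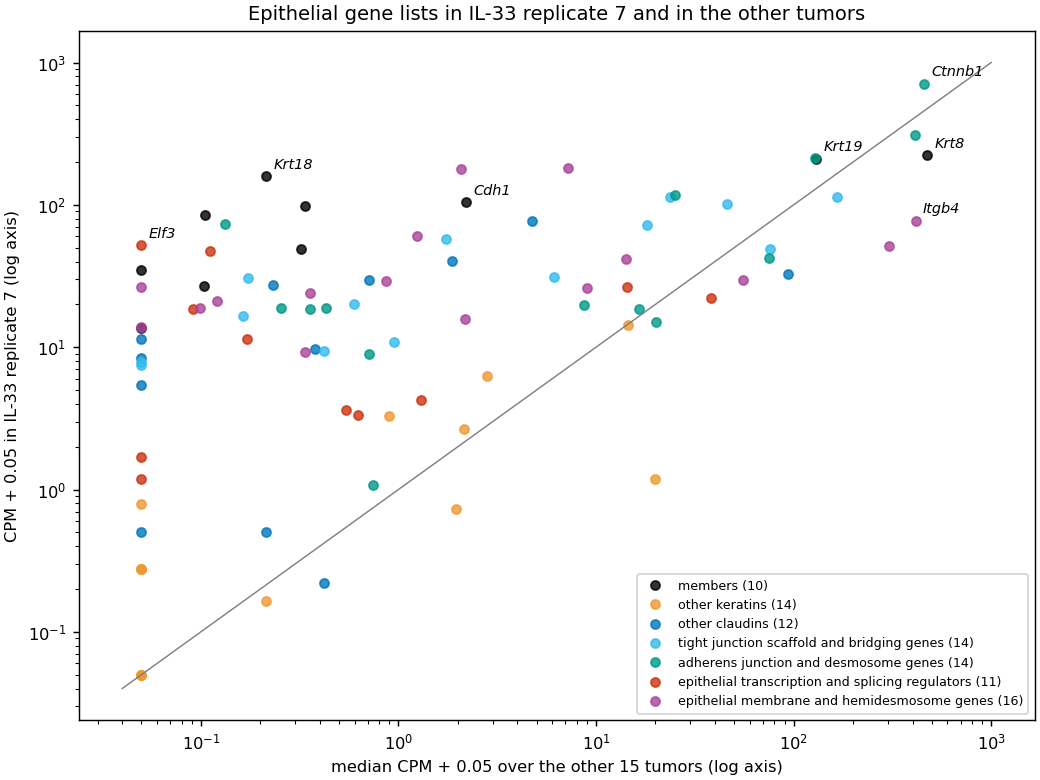
Each point is a gene of 7 epithelial lists (number of genes in brackets), placed by its median CPM over the other 15 tumors and its CPM in IL-33 replicate 7, both plus 0.05 on log axes, with a line of equality. Krt8, Itgb4 and Krt19 lie near or under the line, while Krt18, Cdh1 and Elf3 lie far above it.

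The label of the tumors was compared with marker lists. Of 12 stomach genes 7 were tested, 2 were higher (Lor and the proton pump chain Atp4a, at most at 0.109 CPM in the 15 tumors) and 1 lower (Gkn1) at an unadjusted p under 0.05. Lor and Atp4a had reached 10 counts only through IL-33 replicate 7, so their calls add no support. Of all genes tested, 9.99% were higher and 1.17% lower. The sum of the list was between 0.802 and 5.30 CPM in the 15 tumors and 5.41 CPM in IL-33 replicate 7. Muc6 (0.270 to 4.48 CPM) and Gkn1 (0.0823 to 1.54 CPM) had the highest means over the 16 tumors, Gkn2 was at 0 in every tumor, and loricrin (Lor), of squamous epithelium, was at 0 in the 15. The listed genes were thus low in these tumors of a forestomach carcinoma line. Whether the list covers the lining of the forestomach was not tested. Without IL-33 replicate 7, 0 of 5 tested stomach genes were higher (1.83% of all genes) and 1 was lower (2.29%), Gkn1. Its log2 fold change was −1.27 (SE 0.53, edgeR unadjusted p = 0.0296).

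Most of the listed mesenchymal genes were abundant in the 15 tumors, where Cdh1 was low. Whether carcinoma cells or host cells carried this RNA was not tested. Vim ranged from 3633 to 6290.4 CPM over the 15 tumors against 1249 CPM in IL-33 replicate 7, and fibronectin (Fn1) from 786 to 6127 CPM against 1212 CPM. The Cdh1 repressors were all present, with medians over the 15 tumors of 134 CPM for Twist1, 61.1 CPM for Twist2, 89.0 CPM for Zeb2, 53.5 CPM for Zeb1, 24.9 CPM for Snai2 and 21.6 CPM for Snai1. In IL-33 replicate 7, Twist1 was at 26.7 CPM, Twist2 at 35.2 CPM and Snai2 at 16.9 CPM, below those medians. Zeb1 (63.5 CPM) and Zeb2 (95.8 CPM) were above those medians there but within the range of the other tumors. Snai1 was highest in that tumor, at 55.0 CPM against at most 35.8 CPM elsewhere. Cdh2 (N-cadherin) was low in the 15 tumors, at 0.453 to 4.78 CPM, and highest in IL-33 replicate 7, at 25.5 CPM. Of the 9 genes of this list, 0 were higher or lower at an unadjusted p under 0.05, with or without that tumor. Of all genes tested, 9.99% were higher and 1.17% lower with it, and 1.83% and 2.29% without it.

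The lists of other tissues place IL-33 replicate 7 beside the epithelial values. Of 12 uterus and oviduct genes 11 were higher at an unadjusted p under 0.05 and of 10 ovary genes 10, with 0 lower. Of all genes tested, 9.99% were higher and 1.17% lower. That tumor was set apart by these same lists, so the calls follow from its values and add no support. Without it 0 of 12 and 0 of 5 tested were called either way (1.83% and 2.29% of all genes). The ovary genes no longer tested had reached 10 counts only through that tumor. The oviduct glycoprotein Ovgp1 was at 923 CPM there and at most at 2.83 CPM elsewhere, the steroid enzyme Hsd3b1 at 743 CPM and at most at 0.0584 CPM, and Esr1 at 249.5 CPM and 7.57 to 19.99 CPM. The part of this tissue in the level of the 8 epithelial genes was not tested. Of 8 mesothelium genes 1 was higher, near the share of all genes, and 0 without that tumor. The 1 was Wt1 (139 CPM against at most 3.90 CPM), while Msln, which the tumors carried, was at 375 to 1243 CPM against 92.5 CPM.

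Of 8 intestine genes 5 were tested, 1 was higher (Lgals4, 19.9 CPM against at most 5.89 CPM) and 0 lower. Without IL-33 replicate 7, 1 was higher (Sis, at most 1.11 CPM) and 0 lower. Of all genes tested, 9.99% were higher and 1.17% lower, and without that tumor 1.83% and 2.29%. Of 9 pancreas and liver genes 6 were tested, 1 was higher (Cpa1, 1.77 CPM against at most 0.0546 CPM) and 1 lower (Alb, at most 22.9 CPM). Cpa1 had reached 10 counts only through IL-33 replicate 7. Without IL-33 replicate 7, 2 of 4 tested were lower, Alb and Apoa1 (at most 2.33 CPM). The lower calls rest on vehicle replicate 2, which held 373 counts of Alb and 38 of Apoa1. No other vehicle tumor had more than 9 counts of Alb or 1 of Apoa1. None of the 9 leukocyte genes and none of the 8 fibroblast and endothelial genes was called in either direction, with or without IL-33 replicate 7. The fibroblast and endothelial list summed to 14378 CPM in IL-33 replicate 7 and to between 543 and 6876 CPM elsewhere.

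Genes whose pattern was most like the mean of the set were sought among 13100 genes by Pearson's r. Over 16 tumors they were Epn3, Elf3, Ebf4, Gm28230 and Tmem255a, with r between 0.988 and 0.990, and all 16 points share the high value of IL-33 replicate 7. Over the 15 other tumors they were Ano4 (r = 0.823), Tmc4, Saa3, Smim1 and Vsig4 (r = 0.743). These are descriptions with no test.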

How the data were processed

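Poly(A)-selected RNA was sequenced from 16 abdominal tumors, 8 per group (vehicle or IL-33 treatment). The authors deposited for each tumor the raw counts of reads per gene, without normalization. The submitters' processing notes name HISAT2, featureCounts and mm10. Versions, annotation release and use of strand are not given in the sources used here, so genes that overlap or have near-identical copies are uncertain. Groups and replicate numbers came from the labels. No column of a sample was left unused. GENCODE M21 (GRCm38) named 22255 of the 22298 genes, and the rest held 0.00434% of counts. No 2 tumors agreed within sampling noise (chi-square per degree of freedom at least 9.12).

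CPM is the count scaled to the total count of the tumor, and TPM was computed with the union exon length of GENCODE. The 16817 genes with at least 10 counts were tested with edgeR 4.0.16 (R 4.3.3; TMM, glmQLFit, glmQLFTest, Benjamini-Hochberg over all genes tested). The SE is the fold change divided by the root of the F statistic. For single genes log2(CPM + 0.5) was compared in an exact permutation test, two-sided. The precision of low genes is set by counting, and 0 counts were read as up to 3. The fits were tested on simulated data. Promoter windows of 250 bases came from the RefSeq table.

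The 10 genes were listed by name, with no rule on their values, but they and the other lists were chosen with earlier results of these data known. The genes named are the 10 of the set, from each list the 2 with the highest mean CPM and the 2 with the smallest unadjusted p, a fixed group of regulators and keratins, and the 5 genes most like the set. Any others were named after their values were seen. The lists were other keratins, other claudins, tight junction, adherens junction and desmosome, epithelial regulators, epithelial membrane, mesenchymal, stomach, uterus and oviduct, ovary, mesothelium, intestine, pancreas and liver, leukocyte, and fibroblast and endothelial genes.

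The alternatives were DESeq2 1.42.0, upper-quartile factors, filterByExpr, no filter, limma 3.58.1 voom with quality weights, robust quasi-likelihood, the replicate number as a block, other pseudocounts, another gene length and each tumor left out in turn. DESeq2 without IL-33 replicate 7 and the relations with leukocyte genes were added after seeing the data.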

Additional observations from a re-analysis of the deposited data

Results flagged for a closer look

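In 22 groups of 8 tumors, 11 quantities in each group, the highest or lowest tumor was set against the others by Dixon's ratio. Of the 22, 15 stood apart. A chance rate of about 1 in 20 holds only for normally distributed values. These CPM are skewed and several genes have few counts, so that rate cannot be applied to the 15 flags. Of these, 8 were IL-33 replicate 7, highest of its group with 104 CPM of Cdh1, 98.8 CPM of Epcam, 48.8 CPM of Krt7, 159 CPM of Krt18, 84.6 CPM of Cldn3, 13.5 CPM of Cldn4, 34.9 CPM of Cldn7 and 27.1 CPM of Esrp1. All are the values described above for the tumor with ovary, uterus and oviduct RNA.

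Krt19 stood apart in both groups, with 569 CPM in vehicle replicate 4 and 690.2 CPM in IL-33 replicate 6. In vehicle replicate 4, where long genes were low, Cldn3 was also highest with 1.34 CPM, as was the summed level of the 10 genes with 1548.7 CPM. The other flags were of genes with few counts: Cldn4 at 0.445 CPM and Cldn7 at 0.247 CPM in vehicle replicate 3, and Esrp1 at 0.184 CPM in vehicle replicate 2.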

How the results depend on the processing

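The count of genes past an adjusted p of 0.05 was 0 under every setting run, for the 10 genes and for all genes, except that DESeq2 without IL-33 replicate 7 called 1 gene outside the set. At an unadjusted p under 0.05, the 1680 genes higher in the IL-33 treatment group were 424 with DESeq2, 499 with filterByExpr, 538 with voom and 286 with DESeq2 without IL-33 replicate 7, and 289 to 1902 with 1 tumor left out, the lowest being without IL-33 replicate 7. The 196 lower were 479 with voom and 392 with DESeq2 without IL-33 replicate 7, and 111 to 362 with 1 tumor left out (the libraries being vehicle replicate 4 with 111, and IL-33 replicates 5, 3 and 7 with 127, 307 and 362). Of the set, the 7 genes higher were 0 with DESeq2, voom and DESeq2 without IL-33 replicate 7, 1 with filterByExpr, which left 3 of the 10 genes, and 0 to 8 with 1 tumor left out. The 0 lower were 2 with DESeq2, with or without IL-33 replicate 7, and 0 to 2 with 1 tumor left out. Of 231 log2 fold changes refitted for the 10 genes, 203 kept their direction and 28 did not. Those that turned were, with DESeq2, −1.23 for Krt7, −2.22 for Krt18, −2.85 for Cldn3, −2.53 for Cldn4 and −0.0683 for Esrp1 (−1.23, −2.35, −2.80 and −0.0394 for Krt7, Krt18, Cldn3 and Esrp1 without IL-33 replicate 7). With voom they were −0.65 for Krt7, −1.36 for Krt18, 0.30 for Krt19, −0.78 for Cldn3, −0.72 for Cldn4 and −0.17 for Esrp1. With 1 tumor left out, the log2 fold changes ran from −1.20 to 3.36 for Krt7, −2.27 to 5.04 for Krt18, −0.75 to 0.75 for Krt19, −2.54 to 5.74 for Cldn3 and −0.0131 to 5.94 for Esrp1. The differences of mean log2(CPM + 0.5) behind the exact test ran from −0.33 to 0.65 for Krt7, −0.66 to 0.52 for Krt18, −0.26 to 0.34 for Krt19, −0.39 to 0.71 for Cldn3, −0.11 to 0.60 for Cldn4 and −0.00664 to 0.82 for Esrp1, and with a pseudocount of 0.1 that of Krt18 was −0.0454. Where the change is not shown by a left-out or replaced value, the cause was not tested. The depth limits all genes but Krt8, Krt19 and Cdh1 to a few counts in most tumors.

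Replicate numbers are shared by the groups, but same-numbered tumors did not deviate together: their correlations ran from −0.318 to 0.351 with a median of −0.0426, 4 of 8 were above 0.1, and 1 of 8 tumors correlated best with its own number. With the replicate number as a block, 246 genes were higher and 72 lower at an unadjusted p under 0.05, 0 of the 10 genes were either, and the log2 fold changes that turned were −0.0122 for Krt7, −1.17 for Krt18, 0.0692 for Krt19 and −0.59 for Cldn3.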

Other observations

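Outside IL-33 replicate 7, vehicle replicate 3 had the highest level of Krt7 (2.72 CPM), Krt18 (1.83 CPM) and Cldn4 (0.445 CPM), and also of the squamous genes Krt5 (1.33 CPM) and Sprr1a (2.72 CPM), and its fibroblast and endothelial list summed to 6876 CPM. Krt20 ran from 0.206 CPM in IL-33 replicate 8 to 80.9 CPM in vehicle replicate 5. Both were noticed after the values had been seen.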
